A study of Mus musculus with 17 samples.

Results

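The 6 genes described here either stood higher with the liver X receptor (LXR) agonist GW3965 in these mouse livers or are known as minor LXR targets outside the lipid enzymes: Adam11, Sema6d, Tmem135, Cert1, Rnf145 and Smpdl3a. They were chosen by symbol, 6 of the 24676 genes in the deposited table, and all 6 were among the 13379 genes that passed the filter on low values (10 or more normalized counts in 4 or more of the libraries). Because the GW3965 difference itself served to pick them, that difference is described here without a test and supports nothing about the choice. Against the label of GW3965-induced genes, Smpdl3a did not separate between GW3965 and vehicle in either genotype.

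Liver mRNA was sequenced from male mice of mixed strain, 11 weeks old, all of them homozygous for loxP-flanked Gata4 (Gata4 fl/fl). An adeno-associated virus of serotype 8 had been given 1 week earlier, either AAV8-Tbg-Cre, in which the hepatocyte promoter Tbg drives Cre (Gata4LKO), or an empty AAV8 (control), so that Cre was directed to hepatocytes and Cre exposure went together with genotype. By gavage the mice then received GW3965, a synthetic agonist of both LXR isoforms, at 40 mg/kg in canola oil, or dimethylsulfoxide in canola oil as vehicle, 17 h and again 8 h before they were killed after a 4 h fast. The 17 libraries formed the groups control vehicle (n = 4), control GW3965 (n = 4), Gata4LKO vehicle (n = 4) and Gata4LKO GW3965 (n = 5), as the sample titles give them; the treatment entry contradicts the title in 8 libraries.

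LXR is a nuclear receptor that binds oxysterols and, with its partner RXR, sits on direct repeats of a short hormone response element. In hepatocytes it raises transporters that export cholesterol and the enzymes of fatty acid synthesis, and in macrophages it raises a cholesterol efflux programme. The 6 genes lie beside these routes. RNF145 is a ubiquitin ligase of the endoplasmic reticulum that acts on the sterol sensor SCAP in mouse liver. TMEM135 is a membrane protein of peroxisomes and mitochondria, CERT1 carries ceramide from the endoplasmic reticulum to the Golgi for sphingomyelin synthesis, and SMPDL3A is a secreted phosphodiesterase related to acid sphingomyelinase. ADAM11 is a member of the ADAM family without protease activity, known mainly from neurons, and SEMA6D is a transmembrane semaphorin that signals through plexin A receptors.

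Promoter sequence was examined because LXR acts through a defined element and because 5 of the genes moved together with its agonist. RefSeq promoters (GRCm38.p6, 250 bases before to 50 bases after a transcription start) were matched by symbol for 4 of the 6 genes, Sema6d, Tmem135, Cert1 and Rnf145, with 7 starts among them, and not for Adam11 or Smpdl3a. The element searched on both strands was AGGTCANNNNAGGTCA, a direct repeat with 4 spacer bases, scored over its 12 specified bases. None of the 7 promoters held the repeat unit AGGTCA itself, which occurs in 16.3% of all 32851 promoters. The best match among them had 3 mismatches, reached at an Rnf145 start (first base at -92 from the start), and 21.9% of all promoters have a match at least as good. The best match at that start is given with the repeat units in capitals and the spacer in lower case, beside those of 3 long-known LXR targets, picked from 13 with a promoter entry because the letters of Rnf145 resemble theirs.
Rnf145 (chr11:44520039-44520338): GGGTTActacAGTTCA
Abca1 (chr4:53159846-53160145): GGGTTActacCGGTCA
Fasn (chr11:120824498-120824797): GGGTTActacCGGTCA
Srebf1 (chr11:60210422-60210721): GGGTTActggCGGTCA

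Abca1 encodes the sterol exporter, Fasn fatty acid synthase and Srebf1 the lipogenic transcription factor SREBP-1. Over its 16 bases the Rnf145 match shared 14 with that of Abca1, as did Srebf1, and Fasn shared all 16. At least 14 of the 16 bases occurred in 6 of the 32851 promoters (0.0183%), which belonged to Abca1, Fasn, Srebf1, Rnf145 and the predicted gene Gm52617, the last with 2 overlapping starts. This sequence was taken for comparison after the best matches had been seen, and the count is a description of letters in these windows. At the other 6 starts of the followed genes, 9 to 11 of the 16 bases were shared, as at the other starts of the long-known targets. A match to the searched element with 3 mismatches or fewer was found in 3 of those 13 targets (23.1%), beside 24.5% of all genes with a promoter entry.

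Whole promoters are given for the Rnf145 start with that match and for Tmem135, Cert1 and the upstream start of Sema6d, which were higher with GW3965 in both genotypes, written 5′ to 3′ on the strand of the gene with the best match in capitals.
Rnf145, chr11:44520039-44520338, plus strand: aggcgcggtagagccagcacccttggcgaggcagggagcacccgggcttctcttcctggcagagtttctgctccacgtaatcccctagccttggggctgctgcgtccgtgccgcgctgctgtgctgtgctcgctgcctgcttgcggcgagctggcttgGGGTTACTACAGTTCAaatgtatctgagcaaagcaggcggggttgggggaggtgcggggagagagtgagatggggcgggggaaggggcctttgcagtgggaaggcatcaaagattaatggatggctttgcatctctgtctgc
Tmem135, chr7:89404173-89404472, minus strand: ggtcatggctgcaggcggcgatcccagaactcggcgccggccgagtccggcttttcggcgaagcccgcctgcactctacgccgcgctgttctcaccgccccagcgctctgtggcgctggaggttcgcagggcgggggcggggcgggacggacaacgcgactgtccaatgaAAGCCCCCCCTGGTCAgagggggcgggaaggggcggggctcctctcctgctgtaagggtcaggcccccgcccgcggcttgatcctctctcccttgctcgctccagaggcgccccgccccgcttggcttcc
Cert1, chr13:96542485-96542784, plus strand: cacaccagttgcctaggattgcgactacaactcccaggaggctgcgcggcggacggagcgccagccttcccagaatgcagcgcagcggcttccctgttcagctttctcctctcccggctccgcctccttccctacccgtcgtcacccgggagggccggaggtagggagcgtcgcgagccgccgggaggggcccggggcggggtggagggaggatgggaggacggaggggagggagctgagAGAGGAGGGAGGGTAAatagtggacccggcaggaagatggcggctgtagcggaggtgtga
Sema6d, chr2:124089719-124090018, plus strand: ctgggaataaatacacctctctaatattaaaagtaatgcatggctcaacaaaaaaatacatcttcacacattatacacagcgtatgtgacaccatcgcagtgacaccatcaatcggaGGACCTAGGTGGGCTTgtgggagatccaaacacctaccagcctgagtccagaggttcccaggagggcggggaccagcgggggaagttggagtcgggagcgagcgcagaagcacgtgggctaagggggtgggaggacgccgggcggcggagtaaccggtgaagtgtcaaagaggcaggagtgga

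The capitals mark matches with 3 mismatches in Rnf145, 4 in Tmem135 and Sema6d, and 5 in Cert1, and 76.9% of all promoters hold a match with 4 mismatches or fewer. The GC content of the 7 promoters ran from 46.7% at the second Sema6d start to 77.0% at an Rnf145 start, against a median of 52.7% over all promoters.

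Reads assigned to genes numbered 11.8 to 22.0 M per library. In 5 of them (control vehicle replicate 1, control GW3965 replicates 10 and 13, Gata4LKO GW3965 replicates 17 and 18) mitochondrially encoded genes took 15.6% to 32.6% of the counts, against 6.06% to 7.26% in the other 12. Gata4LKO vehicle replicate 6 and Gata4LKO GW3965 replicate 16 had the fewest genes above 0, 15515 and 15601, with a median of 18406 over all 17. The pseudogene Gm5345 was below a normalized count of 10 in all 4 Gata4LKO vehicle libraries. It was also below 10 in control GW3965 replicates 9 and 10, 2 of the 4, and in no other library. The GW3965 comparison in Gata4LKO livers and the genotype comparison with vehicle therefore run wholly along that split. The other comparisons run along it in part. A Gm5345 term beside the groups can be set only by the control GW3965 libraries, the one group that holds both states. Gata4 itself was not lower in the libraries labelled Gata4LKO, with 153 ± 27.3 normalized counts in control vehicle, 194 ± 44.2 in Gata4LKO vehicle, 221 ± 44.1 in control GW3965 and 219 ± 41.2 in Gata4LKO GW3965 (SD; n = 4, 4, 4 and 5). Reads from exons outside the deleted part would count here as well, so this checks the labels only in part. Of the 10 hepatocyte markers, none was at 0. Their summed normalized count was 1854673 to 2065445 in control vehicle and 1594197 to 2283268 in control GW3965 libraries. It was 1494375 to 1759499 in Gata4LKO vehicle and 1405929 to 1738687 in Gata4LKO GW3965 libraries. For Gata4LKO averaged over both treatments, 1 of the 10 had a positive estimate (median log2 difference -0.15) and 0 were called.

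With GW3965, all 6 genes had higher group means than with vehicle in both genotypes, and the size ran from a 9.02-fold difference for Adam11 to 1.19-fold for Smpdl3a in control livers. For Adam11, Sema6d, Tmem135, Cert1 and Rnf145 every GW3965 library exceeded every vehicle library of the same genotype, in both genotypes, as was so for 76 of all genes (0.568%); within control livers alone 3.13% of all genes met this, and within Gata4LKO livers 2.91%. As the members were picked on this contrast, their share describes the choice. The median log2 difference of the 6 was 0.71 in control and 0.73 in Gata4LKO livers, beside -0.01 and 0.00 over all genes. Smpdl3a, at 0.26 in control livers, was the lowest of the 6, and Sema6d, at 0.55, was the lowest of the other 5.

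**Figure D1:**
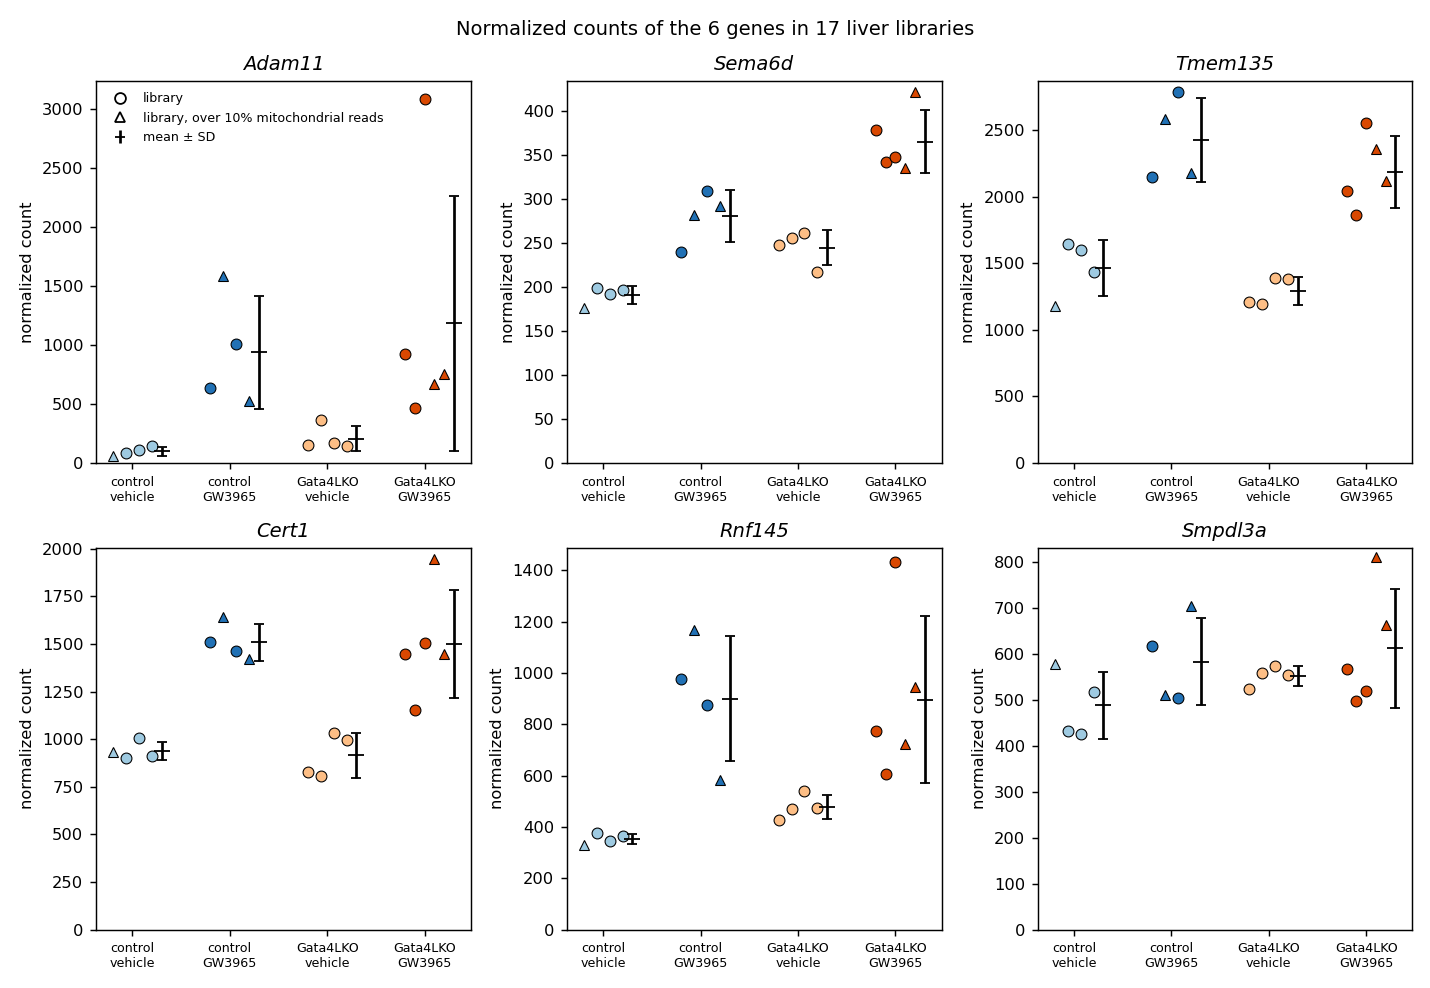
Normalized counts (y axis, from 0, on a scale of its own in each panel) of the 6 genes in each library of the 4 groups (x axis); circles and triangles are libraries, triangles those with over 10% mitochondrial reads, and bars give mean ± SD. Vehicle and GW3965 libraries separate in both genotypes for Adam11, Sema6d, Tmem135, Cert1 and Rnf145, and overlap for Smpdl3a.

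Per kilobase of merged exon, the scale on which levels of different genes can be set side by side, Smpdl3a and Tmem135 were the most abundant of the 6 in control vehicle livers and Sema6d and Adam11 the least. The level was 236 ± 35.3 normalized counts per kilobase for Smpdl3a, 193 ± 27.7 for Tmem135 and 114 ± 5.79 for Cert1 (SD, n = 4). Rnf145 followed at 45.3 ± 2.67, Sema6d at 18.1 ± 1.01 and Adam11 at 17.4 ± 6.23. Sema6d and Adam11 did not differ beyond their spread. With GW3965 the order changed for Adam11, which at 166 ± 84.5 in control livers stood between Rnf145 (115 ± 31.4) and Cert1 (183 ± 11.8), though within its own SD of both. Tmem135, at 320.0 ± 41.4, then also stood above Smpdl3a, at 282 ± 45.9, and these did not differ beyond their spread.

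Rnf145 (ENSMUSG00000019189; mm10 chromosome 11, 44518964 to 44565520, plus strand) encodes the sterol-linked ubiquitin ligase. Control vehicle libraries had 328, 375, 344 and 364 normalized counts and control GW3965 libraries had 978, 1165, 873 and 581. Gata4LKO vehicle libraries had 426, 469, 540.1 and 474, and Gata4LKO GW3965 libraries had 775, 605, 1432, 723 and 946. The lowest GW3965 library of either genotype thus stood above the highest vehicle library of the study. The difference was 2.47-fold in control livers (95% interval 1.79 to 3.41) and 1.80-fold in Gata4LKO livers (1.32 to 2.44). In Gata4LKO livers this was log2 0.85 ± 0.21 (SE), beside a log2 fold change of 0.91 in the authors' deposited table. All 4 Gata4LKO vehicle libraries were above all 4 control vehicle libraries, a log2 difference of 0.43 ± 0.22 whose 95% interval, -0.03 to 0.90, included 0, and the GW3965 means were 899 and 896. With the Gm5345 state as a further term, the estimate in Gata4LKO livers was 1.43 on the log2 scale and that in control livers 1.01. The term was set by the control GW3965 libraries alone, so the shift in Gata4LKO livers was carried over from them.

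Tmem135 (ENSMUSG00000039428; chromosome 7, 89139714 to 89404222, minus strand) had differences of similar size in both genotypes. Control vehicle libraries had 1177, 1641, 1597 and 1437 normalized counts and control GW3965 libraries 2146, 2583, 2786 and 2176. With vehicle the Gata4LKO libraries had 1205, 1197, 1389 and 1380, and with GW3965 they had 2045, 1863, 2553, 2353 and 2115. No vehicle library reached the lowest GW3965 library. The fold was 1.66 in control livers and 1.68 in Gata4LKO livers, or 0.73 ± 0.13 and 0.75 ± 0.12 on the log2 scale (SE). Each GW3965 library lay between 1.44 and 1.97 times its genotype's vehicle mean.

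Cert1 (ENSMUSG00000021669, named Col4a3bp in the annotation; chromosome 13, 96542618 to 96640167, plus strand) encodes the ceramide transfer protein. Normalized counts were 935, 901, 1007 and 911 in control vehicle and 1512, 1644, 1464 and 1420 in control GW3965 libraries. The Gata4LKO vehicle libraries had 826, 807, 1035 and 997, and the Gata4LKO GW3965 libraries had 1447, 1156, 1505, 1948 and 1446. All GW3965 libraries stood above all vehicle libraries, the closest being replicate 15 of Gata4LKO GW3965 at 1156. The fold was 1.61 in control livers (1.33 to 1.95) and 1.62 in Gata4LKO livers (1.35 to 1.95). An antisense gene, Gm48133, shares 3.24% of the Cert1 exon bases and had a mean normalized count of 0.477. Whether reads were counted by strand is not stated in the sources used here.

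Smpdl3a (ENSMUSG00000019872; chromosome 10, 57794335 to 57811830, plus strand), an LXR target in human macrophages, showed no separation. Control vehicle libraries had 577, 432, 425 and 517 normalized counts and control GW3965 libraries 616, 510.0, 504 and 703. Gata4LKO vehicle libraries had 523, 559, 574 and 554, and Gata4LKO GW3965 libraries had 568, 497, 519, 811 and 663. Each of the 3 groups that hold libraries rich in mitochondrial reads had its highest Smpdl3a value in such a library: replicate 1 at 577, replicate 13 at 703 and replicate 17 at 811. Against the other libraries of the same group, those libraries were higher by 0.34 (control vehicle, 1 library), 0.10 (control GW3965, 2 libraries) and 0.48 (Gata4LKO GW3965, 2 libraries) on the log2 scale; the GW3965 difference with and without them is given next. The fold with GW3965 was 1.19 in control livers (0.952 to 1.50) and 1.09 in Gata4LKO livers (0.879 to 1.35). Without the 5 libraries the log2 difference was 0.29 in control and -0.07 in Gata4LKO livers, and with the mitochondrial share as a covariate it was 0.19 and -0.02.

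Adam11 (ENSMUSG00000020926; chromosome 11, 102761439 to 102780262, plus strand) had the largest difference of the 6 and the widest spread. Control vehicle libraries had 58.1, 86.9, 109 and 142 normalized counts and control GW3965 libraries 638, 1587, 1011 and 523. In Gata4LKO livers, vehicle libraries had 153, 364, 166 and 141 and GW3965 libraries 928, 469, 3087, 674 and 757. The lowest GW3965 library, at 469, was above the highest vehicle library, at 364. The fold was 9.02 in control livers (4.50 to 18.1), the 5th largest log2 difference of the 13379 genes, and 4.86 in Gata4LKO livers (2.51 to 9.39), the 13th. Single GW3965 libraries stood at 5.29 to 16.1 times the vehicle mean in control livers, and the lowest in Gata4LKO livers at 2.28 times. Its highest values in the Gata4LKO groups, 364 and 3087, came from the 2 libraries with the fewest genes above 0. The Gata4LKO log2 difference of 2.28 was 1.85 without replicate 16, 2.59 without replicate 6 and 2.16 without both.

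Sema6d (ENSMUSG00000027200; chromosome 2, 124089969 to 124667770, plus strand) had a small difference with little spread. Control vehicle libraries had 176, 199, 192 and 197 normalized counts, and control GW3965 libraries 240.0, 282, 309 and 292. Gata4LKO vehicle libraries had 248, 256, 261 and 217, and Gata4LKO GW3965 libraries had 379, 342, 348, 335 and 422. The groups were ordered from control vehicle through Gata4LKO vehicle and control GW3965 to Gata4LKO GW3965, and only the middle pair overlapped. The fold with GW3965 was 1.46 in control livers (1.23 to 1.74) and 1.49 in Gata4LKO livers (1.26 to 1.75). Its estimate in Gata4LKO livers was log2 0.57 ± 0.11 (SE), and 0.36 ± 0.20 with the Gm5345 term. That term was set by the control GW3965 libraries alone, so the shift in Gata4LKO livers was carried over from them.

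**Figure D2:**
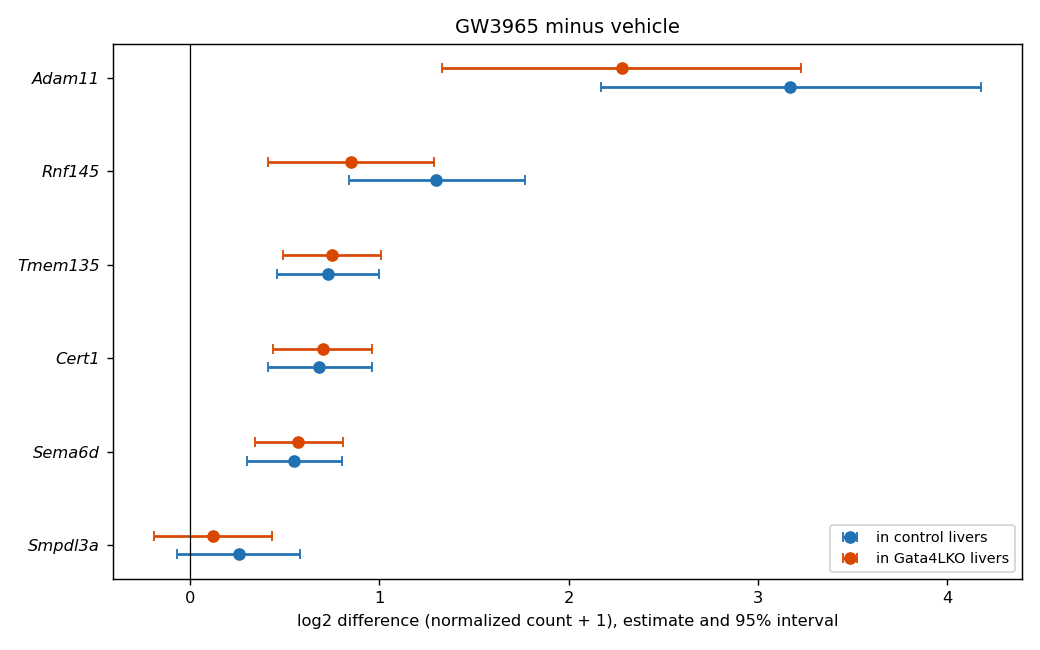
Log2 difference of GW3965 minus vehicle (x axis, normalized count + 1) for the 6 genes (y axis) in control and Gata4LKO livers; points are limma estimates and bars 95% intervals. Intervals of Smpdl3a include 0 in both genotypes, and Adam11 has the largest estimates, 3.17 and 2.28.

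How far the GW3965 difference itself varied with genotype was estimated for each gene, without a test, since it is built from the libraries that chose them. Gata4LKO minus control, it was -0.89 ± 0.66 on the log2 scale for Adam11 (95% interval -2.27 to 0.49) and -0.46 ± 0.30 for Rnf145 (-1.10 to 0.18). Smpdl3a had -0.13 ± 0.21 (-0.58 to 0.32). Tmem135, Cert1 and Sema6d each had 0.02, with intervals that lay within -0.37 and 0.40. All 6 intervals include 0, and those of Adam11 and Rnf145 are the widest.

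The comparison of Gata4LKO with control livers, averaged over both treatments, does not use the GW3965 difference and was tested. It does share its estimate of spread with that difference, since all libraries were in 1 fit. None of the 6 genes was called at an adjusted p below 0.05 in limma, where 0.224% of all genes were called (0.0448% higher and 0.179% lower); 962 genes had an unadjusted p below 0.05, and edgeR called 26 and DESeq2 129. Sema6d came closest, being higher in Gata4LKO by 0.37 ± 0.08 on the log2 scale, a fold of 1.29 (1.15 to 1.45; limma adjusted p = 0.0749). Every Gata4LKO library exceeded every control library given the same treatment, as for 13 of all genes (0.0972%). Its adjusted p over the 28 alternatives ran from 0.00344 with DESeq2 to 0.182 without Gata4LKO vehicle replicate 7, and it was below 0.05 in 3 of them, DESeq2, the fit with the mitochondrial share as covariate (0.0245) and the fit without Gata4LKO GW3965 replicate 17 (0.0408).

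Sema6d and Rnf145 were the members for which every Gata4LKO vehicle library exceeded every control vehicle library, as for 3.00% of all genes, and these are the groups that Gm5345 also separates. Adam11 differed by 0.56 ± 0.33 (adjusted p = 0.821), Rnf145 by 0.20 ± 0.15 (0.900), Smpdl3a by 0.12 ± 0.11 (0.930), Tmem135 by -0.16 ± 0.09 (0.795) and Cert1 by -0.03 ± 0.09 (0.989), all with limma adjusted p-values. For Cert1 the interval in fold was 0.855 to 1.11, and for Adam11 it was 0.915 to 2.38.

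**Figure D3:**
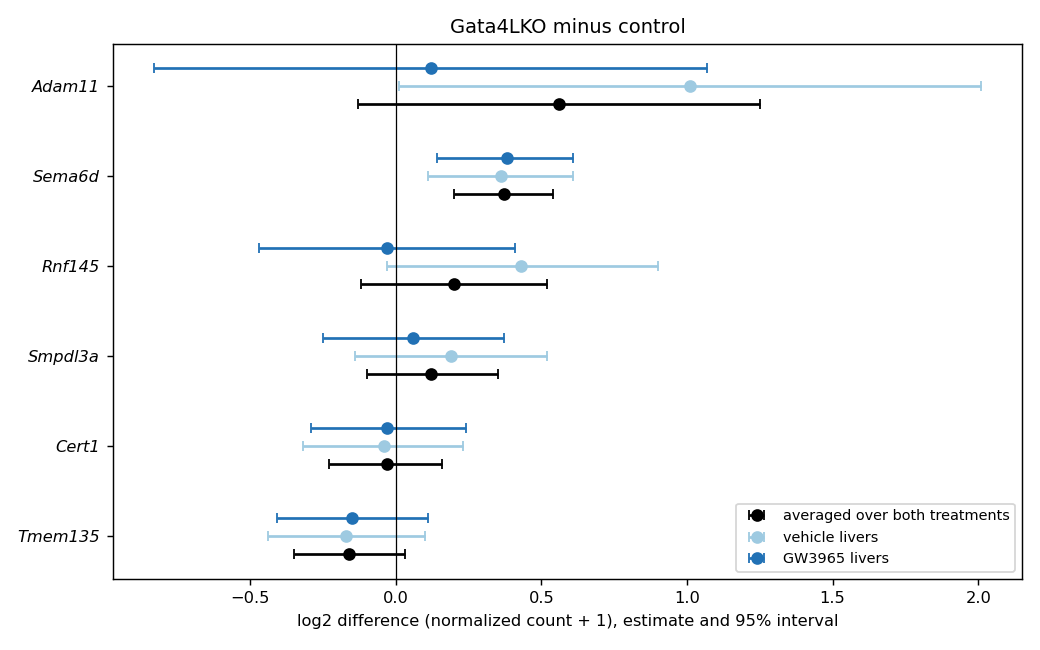
Log2 difference of Gata4LKO minus control (x axis, normalized count + 1) for the 6 genes (y axis), averaged over both treatments and within each; points are limma estimates and bars 95% intervals. The interval of the average excludes 0 for Sema6d (0.20 to 0.54), which did not pass the adjusted threshold.

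Markers of other liver cells were read beside these genes, as Sema6d is also made by non-parenchymal cells and, in whole liver, fewer cells of a type and less RNA per cell cannot be told apart. The summed normalized count of 12 Kupffer cell and macrophage markers was 2477 to 3450 in control vehicle, 4327 to 7145 in control GW3965, 4286 to 5258 in Gata4LKO vehicle and 4390 to 6470 in Gata4LKO GW3965 libraries. It was lowest in control vehicle libraries, with a median of 3168. The other groups overlapped in this sum, with medians of 4875 in control GW3965, 4955 in Gata4LKO vehicle and 5188 in Gata4LKO GW3965. All 12 markers had positive estimates for GW3965 in control livers (median 0.49, 1 called) and for Gata4LKO averaged over treatments (median 0.34, 0 called), against 6 of 12 for GW3965 in Gata4LKO livers (median 0.06). The marker called with GW3965 in control livers was Cd5l, a secreted protein of tissue macrophages whose gene is a known LXR target. Cd5l changed by 1.21 ± 0.21 (limma adjusted p = 0.0126, below 0.05 in 16 of 19 alternatives). It was at 0.0526 without control vehicle replicate 3 and at 0.287 with the Gm5345 covariate (limma adjusted p). Its mean normalized count, which is part of the sum above, was 611 in control vehicle and 1444 in control GW3965 livers. Timd4 had the largest estimate there, at 1.37 ± 0.35 (0.0941), and Adgre1 was at 0.95 ± 0.31 (0.250).

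The 10 sinusoidal endothelial markers summed to 5527 to 5989 in control vehicle, 5444 to 9348 in control GW3965, 5380 to 6654 in Gata4LKO vehicle and 5977 to 9469 in Gata4LKO GW3965 libraries. All 10 had positive estimates in each of the 3 comparisons, with medians of 0.25, 0.47 and 0.19, and none was called. The median endothelial sum went from 5672 with vehicle to 6588 with GW3965 in control livers, and from 6046 to 8908 in Gata4LKO livers. By these medians the groups stood in the same order as for Sema6d, although their ranges overlapped. The Kupffer cell and macrophage medians did not keep that order. The 10 stellate cell and fibroblast markers summed to 4330 to 6355 in Gata4LKO GW3965 livers and to 3074 to 4490 in the other groups. Lymphocyte and recruited myeloid markers summed to 186 to 445 over all libraries and cholangiocyte markers to 392 to 812. No marker in any list was at 0 throughout. The part of these cells in the Sema6d values was not tested.

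The genes differed in how steady they were within a group. Adam11 had an SD of 0.78 log2 units around the group means, wider than 99.4% of the 1000 genes nearest to it in level, whose median was 0.23. Sema6d lay at the other end with an SD of 0.13, and 97.3% of its 1000 neighbours had a larger one. The SD was 0.34 for Rnf145, wider than 80.2% of its neighbours. For Smpdl3a it was 0.22, and for Tmem135 and Cert1 0.18 each, inside the central part of their neighbours' range (47.9%, 36.4% and 38.3%).

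**Figure D4:**
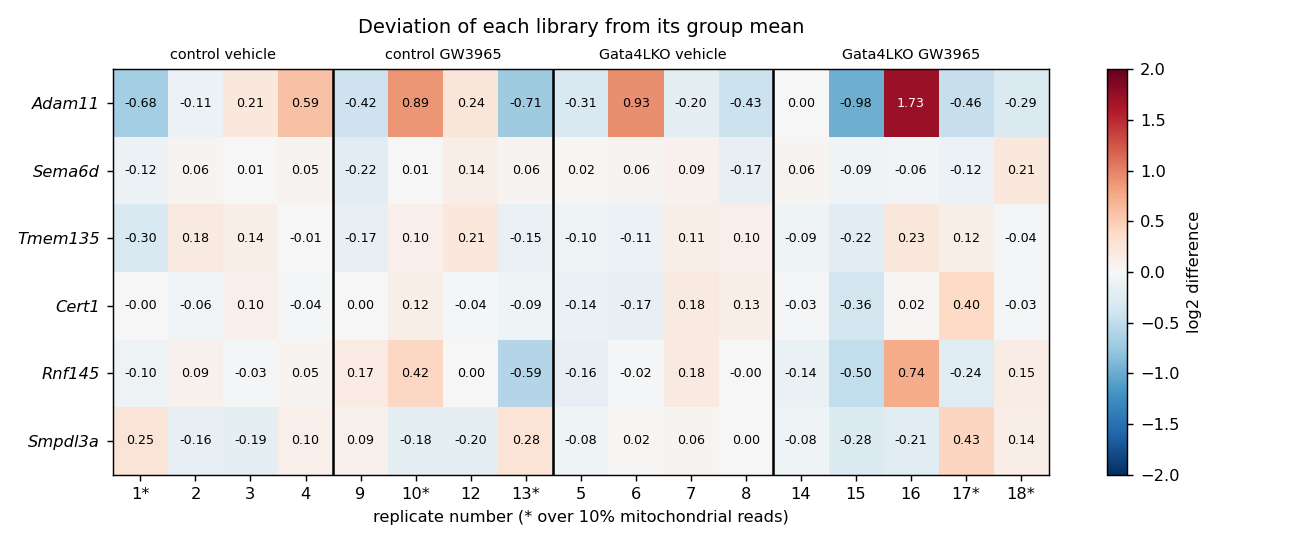
Deviation of each library (x axis, replicate number within its group) from its group mean for the 6 genes (y axis), in log2 of normalized count + 1, as colour and printed value. Adam11 and Rnf145 share their highest GW3965 libraries, replicates 10 and 16, and their lowest, 13 and 15.

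Within groups, Adam11 and Rnf145 leaned the same way. In control GW3965 both were highest in replicate 10 (0.89 and 0.42 above the group mean on the log2 scale) and lowest in replicate 13 (-0.71 and -0.59). In Gata4LKO GW3965 both were highest in replicate 16 (1.73 and 0.74) and lowest in replicate 15 (-0.98 and -0.50). Over the 17 libraries, Pearson's r of these deviations was 0.76 and Spearman's rho 0.62, and r was 0.68 without the 2 libraries farthest from the median. Of the 15 pairs among the 6 genes this was the highest, with Adam11 and Tmem135 at 0.54 and Tmem135 and Rnf145 at 0.56, while Smpdl3a had negative values with 4 of the other 5. These correlations share libraries and their depth and are given as descriptions.

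Ranking all 13379 genes by correlation over the 17 libraries, treatment and genotype included, set each of the genes beside others. For genes picked on the GW3965 difference, near ranks of other genes that differ with GW3965 follow in part from the choice. The ranks are given as descriptions. For Adam11 the nearest were Rnf145 (r = 0.95), the sterol transporter gene Abcg1 (0.93) and Srebf1 (0.92), and for Rnf145 they were Adam11 (0.95), Abcg1 (0.91) and Srebf1 (0.91). Tmem135 lay nearest to Elovl6 (0.95), Scd1 (0.95) and Acaca (0.93), which encode enzymes that elongate, desaturate and start fatty acid chains. Cert1 came next to Ccdc148 (0.92), Tmem135 (0.91) and Scd1 (0.90). The nearest to Sema6d were the kinase gene Fyn (0.92), the endothelial cadherin gene Cdh5 (0.91) and Il18bp (0.86). Smpdl3a resembled Zfp97 (0.91), Cd55 (0.88) and Zfp943 (0.87).

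With group means removed, the nearest genes were Abcg5 (0.92), Mid1ip1 (0.89) and Srebf1 (0.87) for Adam11, and Wdr3 (0.95), Mid1ip1 (0.88) and Slc20a1 (0.87) for Rnf145. Mid1ip1, which both share, encodes a protein that promotes polymerisation of acetyl-CoA carboxylase. Tmem135 had Utp20 (0.91), Elovl6 (0.86) and Acsl5 (0.84), and Cert1 had Txnrd1, Anks4b and Echdc1 (0.87 each). For Sema6d they were Disp2 (0.85), Gm17354 (0.78) and Cygb (0.76), and for Smpdl3a Zfp994 (0.96), Zfp97 (0.93) and Snx14 (0.91). Elovl6 for Tmem135, Srebf1 for Adam11 and Zfp97 for Smpdl3a stood among the 3 nearest by both measures.

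The relatives and working partners of the genes were examined as 8 lists, and few of them moved. The 20 long-known LXR targets in lipid metabolism served as the reference: all 20 had positive estimates in both genotypes, 15 rose past the limma threshold in control livers, where 0.605% of all genes were higher and 0.187% lower past it, and 7 in Gata4LKO livers (0.202% and 0.0448% of all genes), with medians of 1.18 and 1.00 beside -0.01 and 0.00 over all genes. Scd2, a fatty acid desaturase, rose by 2.53 ± 0.20 and 2.38 ± 0.19 (limma adjusted p = 4.65e-06 and 5.16e-06) in control and Gata4LKO livers. Abcg1 rose by 1.88 ± 0.29 and 1.44 ± 0.28 (0.00572 and 0.0341, the latter below 0.05 in 9 of 21 alternatives and up to 0.128 with single libraries left out), and Abcg8, whose protein exports sterols into bile with ABCG5, by 1.33 ± 0.18 and 1.25 ± 0.17 (0.00279 and 0.00769). The 3 targets printed above with Rnf145 had log2 differences in control livers of 1.17 ± 0.18 for Abca1, 2.26 ± 0.40 for Srebf1 and 2.39 ± 0.50 for Fasn (limma adjusted p = 0.00653, 0.0136 and 0.0346, that of Fasn below 0.05 in 10 of 19 alternatives). In Gata4LKO livers they had 0.84 ± 0.17, 1.44 ± 0.38 and 1.74 ± 0.48, and none passed the threshold (0.0518, 0.135 and 0.147). The 13 genes of LXR and its partners gave no call in any comparison, with medians of 0.07 and 0.08.

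**Figure D5:**
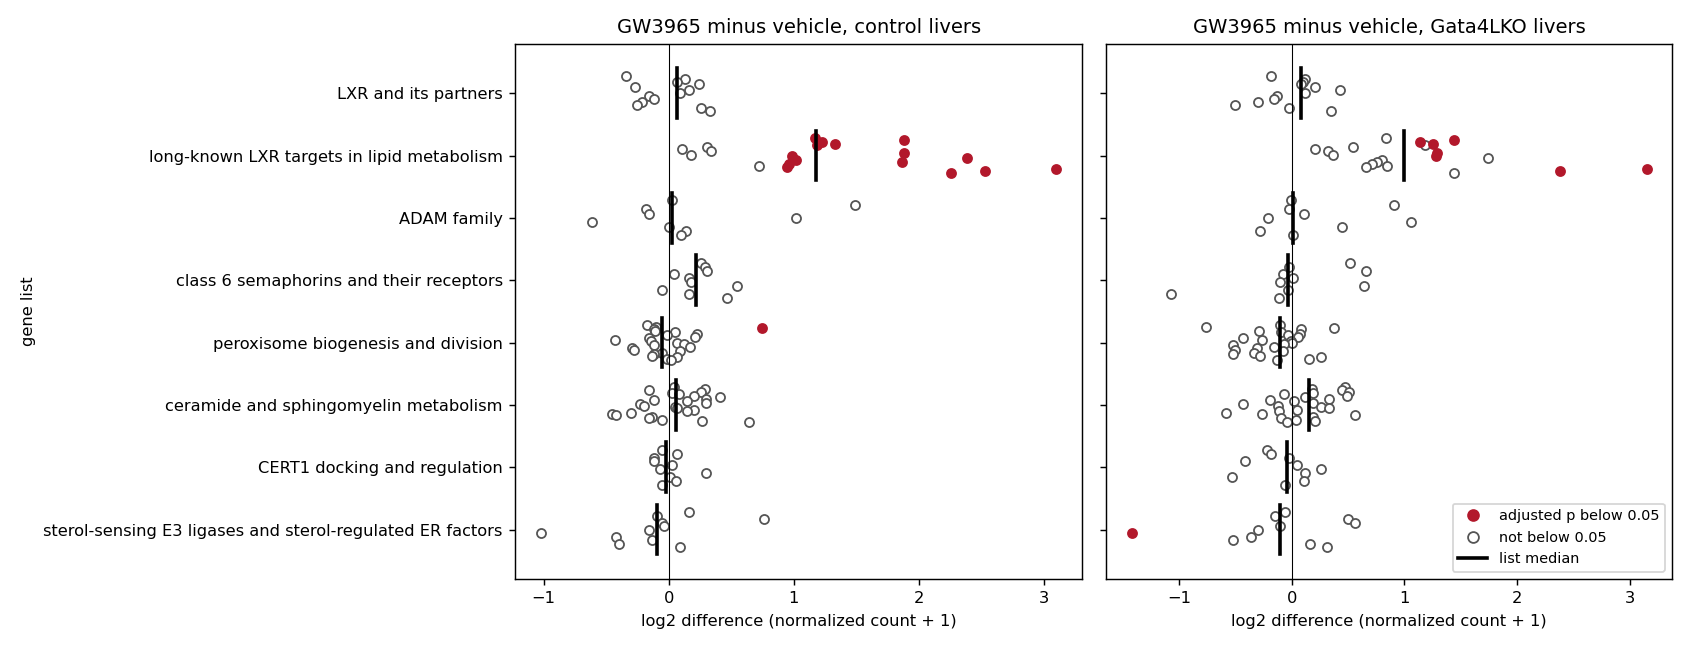
Log2 difference of GW3965 minus vehicle (x axis, normalized count + 1) for every tested gene of 8 lists (y axis) in control and Gata4LKO livers; filled points have a limma adjusted p below 0.05 and bars are list medians. Outside the LXR targets the filled points are Abcd3 in control livers and Sqle in Gata4LKO livers.

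Beside Rnf145, 11 genes of sterol-sensing ubiquitin ligases and sterol-regulated factors of the endoplasmic reticulum were tested, with 0 called in control and 1 in Gata4LKO livers. Sqle, squalene epoxidase of cholesterol synthesis, fell by 1.42 ± 0.28 on the log2 scale in Gata4LKO livers (limma adjusted p = 0.0367, and below 0.05 in 11 of 21 alternatives), and was at -1.02 ± 0.29 in control livers (0.157). Scap, whose protein RNF145 ubiquitinates, was at -0.16 ± 0.13 and -0.30 ± 0.13 (0.855 and 0.366). Rnf139, which encodes a related ligase, had an estimate of -0.04 ± 0.12 in control livers (limma adjusted p = 0.987). Insig1, of the same list, was at 0.76 ± 0.18 in control livers (0.0524, and below 0.05 in 6 of 19 alternatives). In Gata4LKO livers Insig1 was at 0.50 ± 0.17 (0.272). For Gata4LKO averaged over both treatments it was at -0.57 ± 0.12 (0.0689, and below 0.05 in 5 of 28 alternatives).

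Of 25 genes of peroxisome biogenesis and division set beside Tmem135, 1 was called. Abcd3, a fatty acid transporter of the peroxisomal membrane, rose by 0.75 ± 0.12 in control livers (limma adjusted p = 0.00793, and below 0.05 in 17 of 19 alternatives) and was at 0.38 ± 0.12 in Gata4LKO livers (0.217). The list medians were -0.05 and -0.10. Neither the 26 genes of ceramide and sphingomyelin metabolism nor the 10 of CERT1 docking and regulation gave a call, with medians of 0.06 and 0.15 and of -0.02 and -0.04. The largest estimate of the former in control livers was that of Ugcg, which directs ceramide to glycosphingolipids, at 0.64 ± 0.24 (0.362), and that in Gata4LKO livers belonged to Smpd1, acid sphingomyelinase, at -0.58 ± 0.18 (0.221).

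Of the ADAM family and its ligands beside Adam11, 0 of 9 tested genes were called with GW3965 in either genotype, with medians of 0.03 and 0.01. Adam12 had the largest estimate in control livers at 1.49 ± 0.70 and Adam19 was at 1.02 ± 0.32 (limma adjusted p = 0.551 and 0.227). Adam12 was near the floor, with 2.29 ± 2.08 normalized counts in control vehicle and 8.02 ± 5.40 in control GW3965 livers (SD). For Sema6d, 0 of 10 tested class 6 semaphorins and receptors were called, although 9 of the 10 were positive both with GW3965 in control livers (median 0.22) and in Gata4LKO livers averaged over treatments (median 0.23); with GW3965 in Gata4LKO livers 4 of the 10 were positive (median -0.03). Sema6a was at 0.55 ± 0.30 and 0.64 ± 0.28 with GW3965 in control and Gata4LKO livers (0.654 and 0.389), and Plxna1, a receptor of SEMA6D, was higher in Gata4LKO by 0.45 ± 0.12 without passing the threshold (0.161). The largest estimate of the list with GW3965 in Gata4LKO livers went the other way. It was that of Sema6c, at -1.07 ± 0.54 (0.435), with mean normalized counts of 18.5 with vehicle and 10.4 with GW3965. In control livers Sema6c was at 0.16 ± 0.57 (0.988). Scap, Rnf139, Adam19, Plxna1, Srebf1, Abca1 and Gm52617 were named for their role or sequence after their values had been seen.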

How the data were processed

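Per the labels' protocols, liver RNA was extracted with TRIzol and RNeasy columns and sequenced from KAPA mRNA Hyperprep libraries. STAR 2.6.0c, FastQC, DESeq2 and the mm10 build are named in the submitters' processing notes; the sources used here name no read counter, annotation or strand. The deposited table holds a normalized signal, reads per gene divided by a size factor per library: multiplied back, 100% of values came to whole reads within a tolerance of 0.05. The authors' comparison tables give log2 fold changes and p-values with adjusted p-values, per the file headers. All columns matched a sample, and groups follow the titles.

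Here, limma-trend (limma 3.58.1, R 4.3.3) was fitted to log2(normalized count + 1) for 13379 genes with at least 10 in at least 4 libraries, all 17 libraries in 1 fit, with Benjamini-Hochberg adjustment and a threshold of 0.05. Differences are on that log2 scale and understate the change of low genes; values are mean ± SD and differences ± SE. No label states separate mice per library, so p-values measure the spread between these libraries. edgeR 4.0.16 and DESeq2 1.42.0 on recovered reads, other pseudocounts and filters, covariates and left-out libraries were alternatives. The fit was tested on simulated data. Positions are from GENCODE M21, which held 24656 of 24676 identifiers, and promoters from RefSeq GRCm38.p6.

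The genes, lists and tests were chosen with earlier results of these data known. Of 7 genes listed, 1 is not reported here, nor are some of the lists' genes. Named were the other 6 genes and the 3 genes most correlated with each of the 6. The rule for the lists was up to 6 called genes per list and comparison with the largest estimate of each list. Not all genes that met this rule for the lists were named.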

Additional observations from a re-analysis of the deposited data

Results flagged for a closer look

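Of the 24 sets of values examined (6 genes in 4 groups), 2 held a library far from the others of its group, both for Adam11; chance alone marks about 1 set in 20. Gata4LKO vehicle replicate 6 had an Adam11 normalized count of 364, while the other 3 libraries of that group had 141 to 166, so that its gap made up 0.889 of the group's range, past the 95% critical value for 4 libraries. Gata4LKO GW3965 replicate 16 had 3087, while the other 4 had 469 to 928, a gap of 0.825 of the range, past that for 5 libraries. These are also the 2 libraries with the fewest genes above 0, 15515 and 15601. Rnf145 was highest in replicate 16 as well, at 1432, but in replicate 6, at 469, it lay within 426 to 540.1 of its group.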

How the results depend on the processing

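Genes called with GW3965 in control livers numbered 106, and 57 without a filter on low values, 228 with DESeq2 on recovered reads, 19 with the 2 groups fitted alone, 63 without the libraries rich in mitochondrial reads, 202 with the mitochondrial share as covariate, 12 with the Gm5345 state as covariate, and 22 (without control GW3965 replicate 10) to 109 with single libraries left out. In Gata4LKO livers 33 were called, 195 with DESeq2, 1 with the Gm5345 covariate, 6 (without Gata4LKO vehicle replicate 6) to 78 (without Gata4LKO GW3965 replicate 15) with single libraries left out, and 4 without the 2 libraries with the fewest genes above 0, an alternative chosen after seeing the data. For Gata4LKO averaged over treatments 30 were called, 129 with DESeq2, 128 with the mitochondrial covariate, 8 with the Gm5345 covariate, and 9 (without control vehicle replicate 3) to 57 (without Gata4LKO GW3965 replicate 17). Fewer libraries or groups leave fewer degrees of freedom. The Gm5345 covariate was set by the control GW3965 libraries alone, so its count in Gata4LKO livers rests on a term carried over from them. The cause of the other shifts was not tested.

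The log2 differences with GW3965 of Adam11, Rnf145, Tmem135, Cert1 and Sema6d were positive in every alternative run in both genotypes, a direction on which the genes had been picked. In control livers Adam11 ranged from 2.85 to 3.41 and Rnf145 from 1.01 to 1.50; in Gata4LKO livers Adam11 ranged from 1.85 to 2.75 and Rnf145 from 0.65 to 1.43. TMM scaling moved the median of all genes by -0.00587 to 0.00362. No paired analysis was possible because the groups share no replicate numbers in the titles. The lowest normalized count of the 6 genes was 58.1, for Adam11 in control vehicle replicate 1.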
